A study of Mus musculus with 4 samples.

Results

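The cytosolic ribosomal protein genes were examined in effector CD4 cells of mice with experimental autoimmune encephalomyelitis (EAE), a model of multiple sclerosis in which immunization against myelin brings CD4 cells into the spinal cord. Members were taken by symbol: Rpl or Rps followed by a digit, without the Rps6k kinases and without symbols that contain "-ps", together with Rplp0, Rplp1, Rplp2, Rpsa and Fau. This gave 88 of the 23990 gene symbols in the tables. Of these, 78 are the core ribosomal proteins of the mouse, 32 of the small subunit and 46 of the large subunit, the latter with the 3 proteins of the stalk. A further 9 symbols are paralogs or copies of core members, and 1, Rps19bp1, encodes a protein that is not part of the ribosome. At the onset of EAE, CD44+CD4 cells were isolated by sorting, with 2 libraries for the spinal cord (CNS) and 2 for pooled draining lymph nodes (dLN). The mice were wild type, C57BL/6 in the labels and C57BL/6J in the methods, immunized with the MOG35-55 peptide in complete Freund's adjuvant with pertussis toxin. The study's methods state that sorted cells were stimulated with PMA and ionomycin before RNA was purified, whereas the sample labels name no stimulation. The labels describe the cells as freshly sorted, and which account holds for these libraries was not settled. Values are FPKM, that is fragments divided by transcript length and by the mapped fragments of the library, summed over the transcripts of a symbol, and log2 ratios are CNS over dLN on the log2(FPKM + 1) scale. From the steps between low FPKM values, depth was estimated at 18.5 M to 22.0 M fragments per library. Nothing in the labels says whether the 2 libraries of a tissue came from separate groups of mice, so p-values measure the spread between these libraries, which may be technical.

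Ribosomal proteins and ribosomal RNA form the small subunit, which reads the mRNA, and the large subunit, which joins amino acids. Their mRNAs are among the most abundant of a dividing cell, and most begin with a C and a run of pyrimidines, the terminal oligopyrimidine (TOP) tract. Through this tract the mTORC1 kinase and the RNA-binding protein Larp1 adjust their translation and stability together, and activated T cells are known to raise ribosome production as they grow.

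Start sites of a few members are shown because the TOP tract is the sequence feature by which this group of mRNAs is known. The RefSeq promoter table (GRCm38.p6) held 67 of the 88 members and 58 of the 78 core members, with 250 bases before and 50 after each start. Each line below gives 30 bases, 5′ to 3′ on the gene's strand, with the annotated start at base 16 and, in capitals, the nearest run of a C followed by at least 4 C or T. Rpl13a and Rps15a were higher in CNS, as was Rps6, the target of S6 kinases. Rpl35 and Rps12 did not pass the test, and Rpl24, higher in CNS, had no such run in this window.
Rpl13a (chr7:45128731-45128760, minus strand): gaaaccctgcgacaagaCCTCCTCCTTTCC
Rps15a (chr7:118116133-118116162, minus strand): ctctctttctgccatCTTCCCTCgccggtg
Rps6 (chr4:86857353-86857382, minus strand): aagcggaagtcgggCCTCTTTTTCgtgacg
Rpl35 (chr2:39005117-39005146, minus strand): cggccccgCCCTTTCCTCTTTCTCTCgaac
Rps12 (chr10:23787195-23787224, minus strand): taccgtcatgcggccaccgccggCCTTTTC
Rpl24 (chr16:55966260-55966289, plus strand): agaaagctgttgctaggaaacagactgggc

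A C followed by at least 4 pyrimidines began within 10 bases of the annotated start, on the gene's strand, in 32 of 58 core members (55.2%) and in 30.8% of 27025 promoters, 1 per gene. Where several promoters were listed, a member was given the one nearest the start of its highest transcript. Other genes were given the first listed, so the shares rest on unlike choices. Over the whole 300 bases and on both strands, the ETS-type motif CCGGAAG stood in 37.9% of the core members and 9.12% of all promoters. The YY1-type motif AAGATGG stood in 15.5% and 6.48%, TATAAA in 8.62% and 14.2%, and the E-box CACGTG in 8.62% and 7.24%. The motifs do not contain one another. The log2 ratio did not follow the pyrimidine run: its median was 0.39 in the 32 core members with a run and 0.38 in the 26 without. These matches describe annotated starts, which lay within 10 bases of the start in the deposited tables for 50 of the 58.

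Ribosomal protein mRNA made up a large part of the transcriptome in both tissues. The 88 members held 30.3% and 30.4% of all FPKM in the CNS libraries and 26.9% and 27.1% in the dLN libraries. As a share of estimated fragments, which counts these short mRNAs for less, the values were 11.8% and 11.2% in CNS against 8.70% and 8.82% in dLN. The median core member stood at 2000 and 2135 FPKM in CNS and at 1778 and 1758 FPKM in dLN. In bulk RNA, a smaller number of cells that use a gene and less RNA per cell cannot be told apart.

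Levels of most core members lay close together. The mean over the 4 libraries reached 1000 FPKM in 66 of the 78, and was below 500 FPKM in 7. Rplp1, an acidic protein of the stalk, had the highest mean at 3842 FPKM, followed by Rps12 at 3749, Rpl32 at 3639, Rplp2 at 3591 and Rps18 at 3206 FPKM. In these, the tissues were not ordered alike: Rplp1 was at 3466 and 3619 FPKM in CNS and 4148 and 4133 in dLN, whereas Rpl32 was at 3992 and 4455 in CNS and 3109 and 3001 in dLN. The lowest means were those of Rpl30 (49.5 FPKM), Rps27 (72.1), Rpl26 (117), Rpl22 (207) and Rpl34 (259), and 4 of these 5, all but Rpl22, share their locus with another symbol, as described below. Across the 78 core members, mean CNS and dLN levels on the log2 scale had a Pearson correlation of 0.887 and a Spearman correlation of 0.828, given as a description over genes of the same libraries.

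The comparison of CNS with dLN asks how CD4 cells that have entered the spinal cord differ from effector cells still in the lymph nodes. Core ribosomal protein mRNAs mostly stood somewhat above dLN in CNS cells, the median core log2 ratio being 0.38, or 1.30-fold. Of the 86 members whose mean reached 1 FPKM in either tissue, 55 were higher in CNS and 7 lower at a limma adjusted p under 0.05, and 24 did not pass. The most strongly higher members outside shared loci included Rpl13a, Rpl17 and Rpl24, from 1.98-fold for Rpl24 to 2.57-fold for Rpl13a.

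These counts stand beside a large difference across the whole transcriptome. Of 10634 genes tested, 7968 (74.9%) passed, 4016 higher in CNS (37.8%) and 3952 lower (37.2%), with a median log2 ratio of 0.045. The share of members that passed, 62 of 86, was thus close to that of all genes, and what set the members apart in the counts was the direction. Both CNS libraries were above both dLN libraries in 64 members (all genes 45.7%) and below both in 12 (all genes 43.7%), and 10 overlapped. With 2 libraries in each tissue, the smallest two-sided p of an exact permutation test is 0.333, so the calls rest on limma's pooled estimate of the spread.

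**Figure D1:**
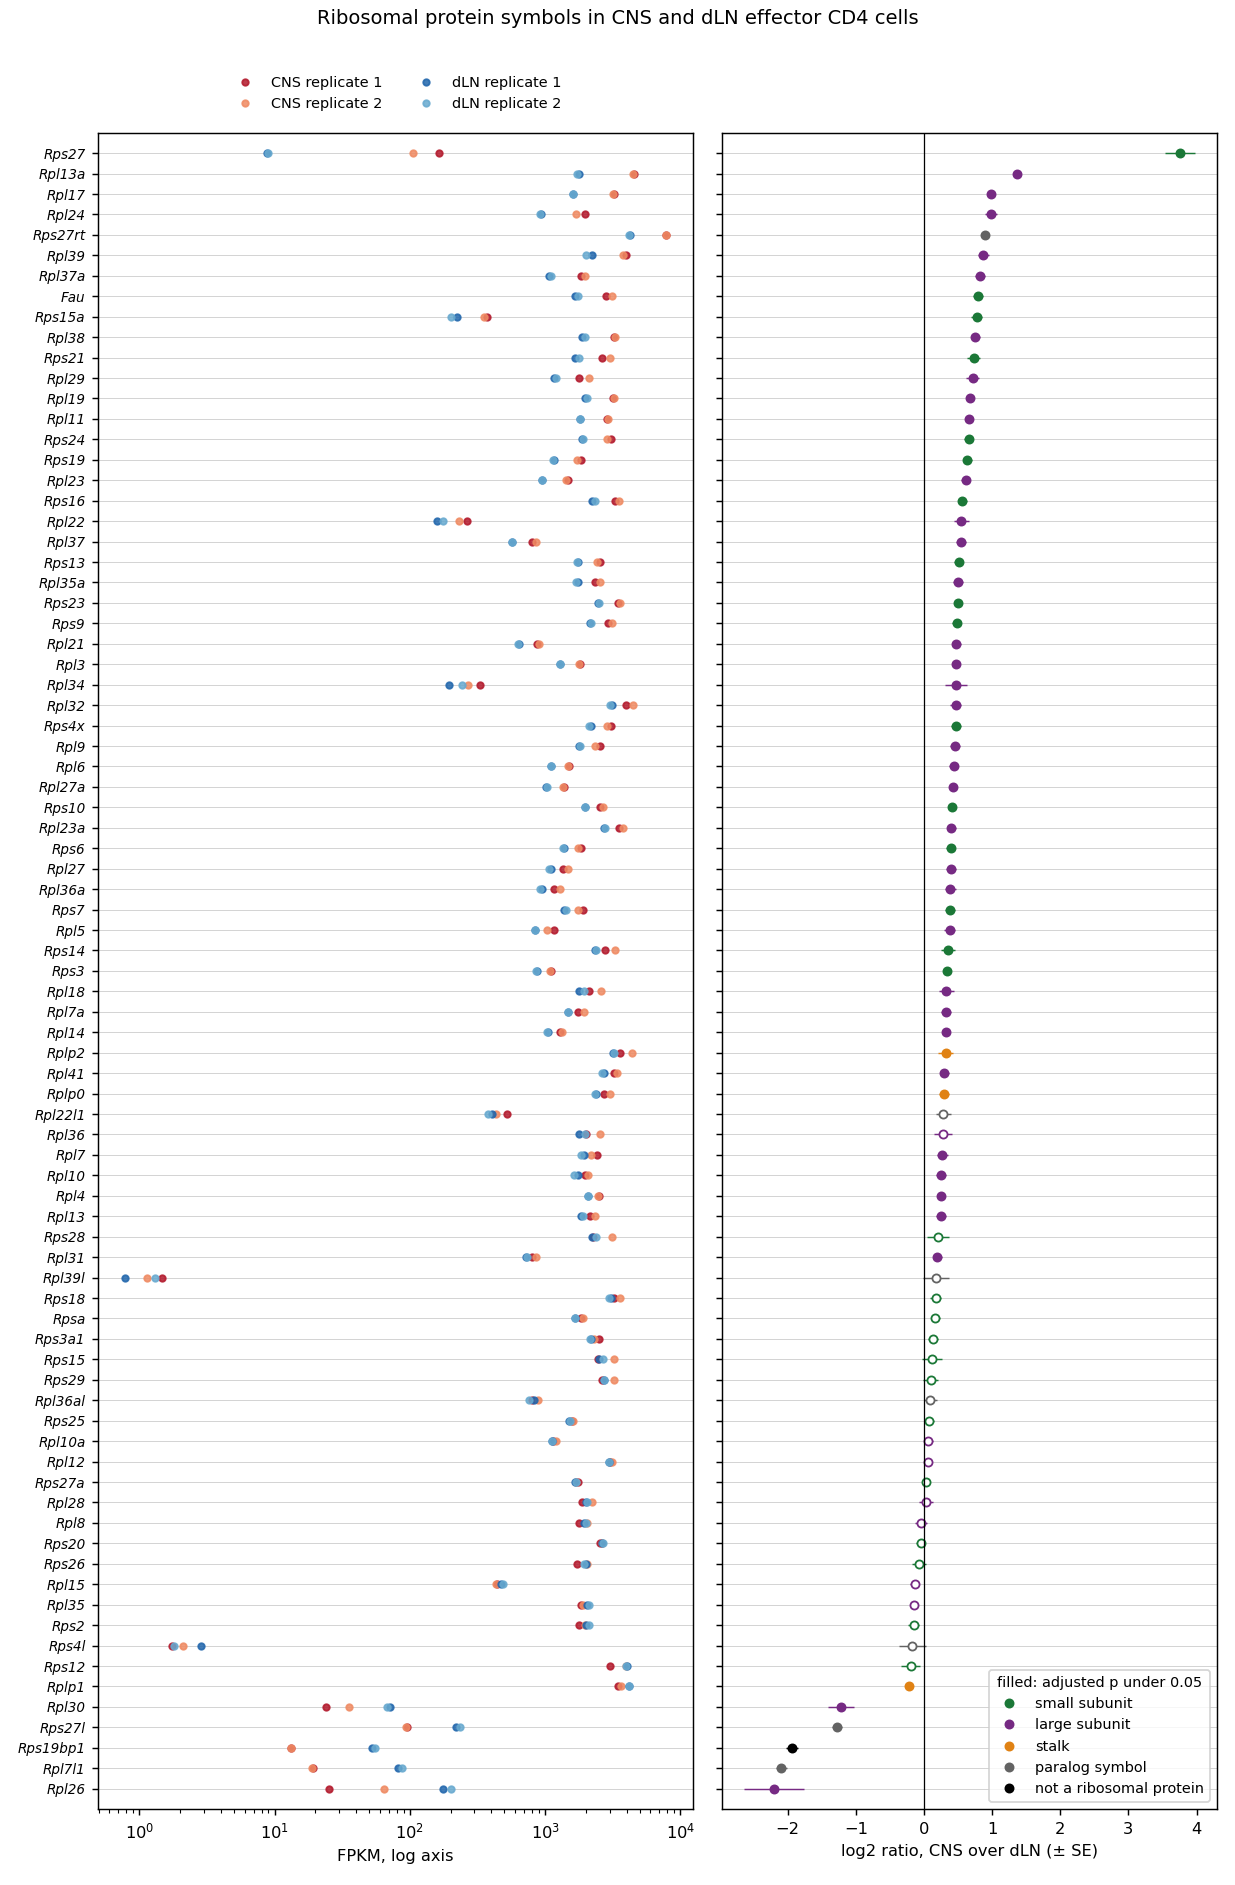
FPKM of 81 of the tested members in each of the 4 libraries (left, log axis) and their log2 ratio, CNS over dLN, with the standard error (right), ordered by ratio. Filled points passed an adjusted p under 0.05 in limma, and the core members plotted, other than Rpl26, Rpl30, Rpl13a and Rps27, sit between -0.23 (Rplp1) and 0.99 (Rpl17).

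The size of this difference depended on how the libraries were scaled. When each library was brought to the same FPKM sum, the median of all genes moved by -0.17, the median core ratio was 0.18, and 36 members were higher in CNS and 15 lower. In that scaling 32.2% of all genes were higher and 42.5% lower. With the same sum over genes other than the members, the core median was 0.25 with 45 members higher and 12 lower (all genes 34.4% and 40.6%). With the same upper quartile it was 0.52 with 63 higher and 6 lower (all genes 42.0% and 33.6%). Scaling multiplies all values of a library by the same factor, so it moves the core and all genes nearly alike. The core median was 0.18 against -0.13 for all genes with the same FPKM sum, and 0.52 against 0.16 with the same upper quartile. That it stayed above was fixed in advance and is no check of the difference. The direction of members near 0, such as Rpsa, Rps18 and Rps27a, turned with the same FPKM sum.

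**Figure D2:**
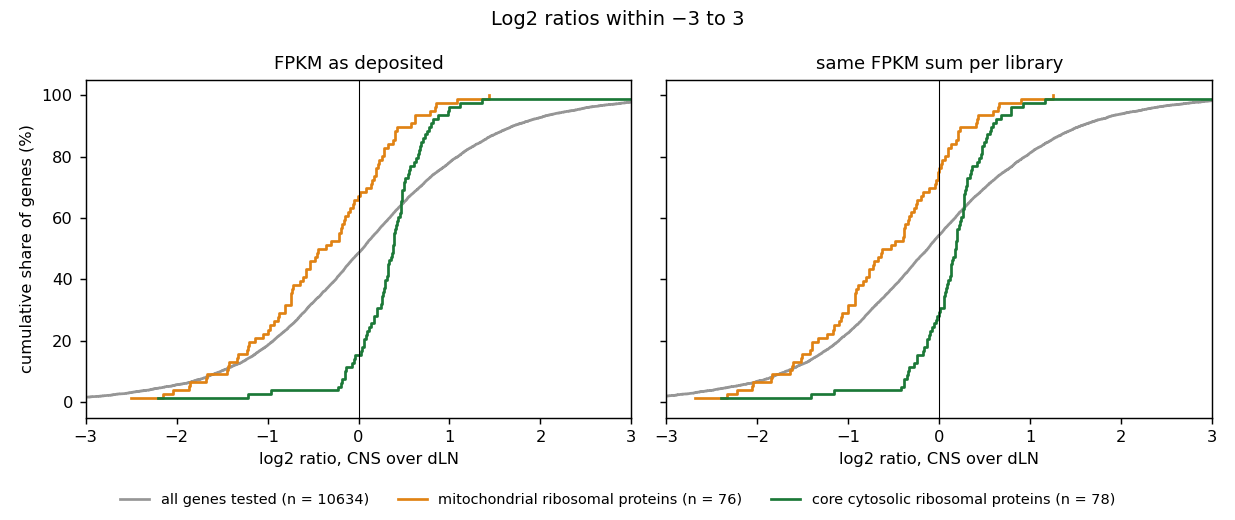
Cumulative share of genes (%) by log2 ratio, CNS over dLN, for all 10634 genes tested, 76 mitochondrial ribosomal proteins and 78 core cytosolic ribosomal proteins, with FPKM as deposited (left) and after scaling to the same FPKM sum (right). The core curve is steep, with a median of 0.38 on the left and 0.18 on the right, and the mitochondrial curve lies to its left in both.

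Replicates differed less than the tissues for most core members. The median difference between replicates was 0.098 on the log2 scale in CNS and 0.033 in dLN. The largest were 1.32 for Rpl26 in CNS and 0.33 for Rpl34 in dLN.

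Of the 32 small subunit proteins, 18 were higher in CNS, 1 was lower and 13 did not pass, with a median log2 ratio of 0.36. The share that passed was 59.4%, against 74.9% of all genes, of which 37.8% were higher and 37.2% lower. Fau, which encodes Rps30 fused to a ubiquitin-like protein, was at 2821 and 3106 FPKM in CNS and 1671 and 1749 in dLN (log2 ratio 0.79, SE 0.077, limma adjusted p = 0.000668). Rps19, whose human counterpart is mutated in Diamond-Blackfan anemia, was at 1827 and 1732 FPKM in CNS and 1156 and 1134 in dLN, with a log2 ratio of 0.64. Rps6, the subunit protein phosphorylated by S6 kinases, was at 1829 and 1758 FPKM in CNS and 1381 and 1350 in dLN, a log2 ratio of 0.39 (SE 0.064, limma adjusted p = 0.0038), and it did not pass with the same FPKM sum (0.19, limma adjusted p = 0.0551). In each of these 3, both CNS libraries lay above both dLN libraries.

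The other members higher in CNS ran from 0.34 for Rps3 to 0.77 for Rps15a, by way of Rps14, Rps7, Rps10, Rps4x, Rps9, Rps23, Rps13, Rps16, Rps24 and Rps21, and included Rps27, taken up below.

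Several small subunit members did not pass the test. Rps12 was at 3041 and 3987 FPKM in CNS and 4010 and 3958 in dLN, so that its 2 CNS libraries differed from each other as much as they did from dLN (log2 ratio -0.19, SE 0.14, limma adjusted p = 0.253). Rps2 had a log2 ratio of -0.15 (SE 0.080). Rpsa, also known as the laminin receptor precursor, was at 1853 and 1910 FPKM in CNS and 1674 and 1675 in dLN (log2 ratio 0.17, SE 0.061, limma adjusted p = 0.0567), with no overlap of the tissues but no call. Rps18 had a log2 ratio of 0.17 (SE 0.079), and its levels were 3209 and 3587 FPKM in CNS and 3073 and 2955 in dLN. Rps26, Rps20, Rps27a, Rps25, Rps29, Rps15, Rps3a1 and Rps28 also did not pass, at log2 ratios from -0.076 (Rps26) to 0.21 (Rps28). These results depended on the scaling. With the same FPKM sum, Rps12 (-0.39), Rps2 (-0.35), Rps26 (-0.27) and Rps20 (-0.25) passed as lower in CNS, and the others named here did not pass. With the same upper quartile, Rpsa (0.30) and Rps18 (0.31) passed as higher.

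Of the 46 large subunit and stalk proteins, 36 were higher in CNS, 3 were lower and 7 did not pass, with a median log2 ratio of 0.39. The share that passed was 84.8%, against 74.9% of all genes, of which 37.8% were higher and 37.2% lower. Rpl13a, known outside the ribosome for silencing inflammatory transcripts in myeloid cells, was at 4510 and 4467 FPKM in CNS and 1784 and 1711 in dLN. This 2.57-fold difference was the largest among core members outside shared loci (log2 ratio 1.36, SE 0.061, limma adjusted p = 9.91e-05). Rpl17, a protein at the exit of the peptide tunnel, was at 3206 and 3188 FPKM in CNS and 1605 and 1613 in dLN (log2 ratio 0.99, SE 0.059). Rpl24, which sits at the subunit interface, was at 1982 and 1705 FPKM in CNS and 939 and 918 in dLN (log2 ratio 0.98, SE 0.094). Rpl37a was at 1845 and 1976 FPKM in CNS and 1060 and 1102 in dLN (log2 ratio 0.82, SE 0.071). These 4 kept their direction and their call under all 16 alternative settings.

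Rpl5 and Rpl11, which bind 5S rRNA as a particle and can hold back Mdm2 when ribosome assembly fails, were both higher in CNS. Rpl11 was at 2856 and 2929 FPKM in CNS and 1822 and 1823 in dLN, a log2 ratio of 0.67 (SE 0.060, limma adjusted p = 0.000527). Rpl5 was at 1155 and 1025 FPKM in CNS and 840 and 836 in dLN, a log2 ratio of 0.38 (SE 0.084, limma adjusted p = 0.0114). With the same FPKM sum Rpl5 no longer passed (0.18, limma adjusted p = 0.154), while Rpl11 kept its call under all 16 alternatives. Whether their ratios differ from each other was not tested. Rpl35 was among the large subunit members with no call, at 1855 and 1889 FPKM in CNS and 2040 and 2105 in dLN (log2 ratio -0.15, SE 0.062, limma adjusted p = 0.0828). Rpl15, Rpl8, Rpl28, Rpl12, Rpl10a and Rpl36 also did not pass, at log2 ratios from -0.14 (Rpl15) to 0.28 (Rpl36). With the same FPKM sum, Rpl35 and Rpl15 (-0.34 each) and Rpl8 (-0.24) passed as lower in CNS, and Rpl28, Rpl12, Rpl10a and Rpl36 did not pass. The other large subunit members that were higher ran from 0.20 for Rpl31 to 0.76 for Rpl38, apart from X-linked Rpl39 (0.87), with Rpl23, Rpl11, Rpl19 and Rpl29 between 0.61 and 0.71.

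The 3 stalk proteins, which recruit elongation factors to the ribosome, had log2 ratios of both signs, and their calls depended on the setting. Rplp0, the base of the stalk, was at 2734 and 3009 FPKM in CNS and 2358 and 2345 in dLN (log2 ratio 0.29, SE 0.073, limma adjusted p = 0.0185). Rplp2 was at 3587 and 4397 FPKM in CNS and 3178 and 3201 in dLN (log2 ratio 0.32, SE 0.11, limma adjusted p = 0.0498). Its partner Rplp1 was lower in CNS, with a log2 ratio of -0.23 (SE 0.060, limma adjusted p = 0.0212). With the same FPKM sum, Rplp0 and Rplp2 no longer passed (log2 ratios 0.088 and 0.12), and Rplp1 did (-0.42). Rplp1 kept its call in 8 of 16 alternatives and lost it, among others, with the same upper quartile (-0.090, limma adjusted p = 0.221), full lengths (-0.16, limma adjusted p = 0.107) and a replicate block (limma adjusted p = 0.066). Rplp2 kept its call in 6 of 16 and Rplp0 in 11 of 16.

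The 4 X-linked core members were higher in CNS, as were 69.2% of all core members and 37.8% of all genes. Rpl39, a short protein that lines the peptide tunnel, was at 3952 and 3768 FPKM in CNS and 2212 and 2008 in dLN (log2 ratio 0.87). Log2 ratios were 0.46 for Rps4x, 0.38 for Rpl36a and 0.25 for Rpl10, and with the same FPKM sum Rpl36a (0.19, limma adjusted p = 0.0553) and Rpl10 (0.057, limma adjusted p = 0.463) no longer passed. The sex-linked transcripts split with the tissues: Xist, the RNA that silences an X chromosome, had 26.6 and 22.3 FPKM in dLN and no more than 0.0026 in CNS. Y-linked Ddx3y had 12.7 and 11.2 FPKM in CNS and was listed at 0 in dLN. Eif2s3y, Kdm5d and Uty, also Y-linked, were likewise read in both CNS libraries and listed at 0 in dLN. Tissue and the sex of the mice, as read from these transcripts, therefore cannot be told apart for any ratio given here.

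The single lowest and the single highest member in the order, Rpl26 and Rps27, each have a locus that is listed under a second symbol. At 4 loci another symbol with over 90% of the FPKM overlapped a core member: Gm15772 at Rpl26 (chr11:68901566-68904534), Gm12191 at Rpl30 (chr15:34440508-34443276), Rpl34-ps1 at Rpl34 (chr3:130726827-130730398) and Rps27rt at Rps27 (chr3:90212667-90213648, all mm10). Under its own symbol Rpl26 was at 25.1 and 63.9 FPKM in CNS and 177 and 201 in dLN, the lowest ratio of any member. Gm15772 carried 2533 and 2738 FPKM in CNS and 2145 and 2054 in dLN. Summed, the locus was higher in CNS, with a log2 ratio of 0.23 (limma adjusted p = 0.0402) in place of -2.20.

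Rpl30 turned in the same way. Its own symbol was at 24.1 and 35.5 FPKM in CNS and 70.9 and 67.4 in dLN (log2 ratio -1.21), and the locus with Gm12191 was at 3839 and 4139 FPKM in CNS and 2281 and 2221 in dLN (log2 ratio 0.82, limma adjusted p = 0.000427). Rps27 had the highest ratio of all members, 3.76, from 164.9 and 105.9 FPKM in CNS and 8.81 and 8.89 in dLN. Its transcript and that of Rps27rt span nearly the same bases, and Rps27rt was at 7825 and 7814 FPKM in CNS and 4206 and 4198 in dLN, a log2 ratio of 0.90. The sum of both had a log2 ratio of 0.92 (limma adjusted p = 0.000186). Rpl34 went from 0.47 with its own symbol to 0.20 with Rpl34-ps1 added, which no longer passed (limma adjusted p = 0.0641).

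How the authors' program divided fragments between such overlapping transcripts was not tested, so single values for these symbols are uncertain. With each locus summed, 54 members were higher in CNS (37.8% of all genes) and 5 lower (37.2%), and 2 core members were lower in CNS, Rplp1 among them. Without the 4 members the median core ratio was 0.38, as with them.

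**Figure D3:**
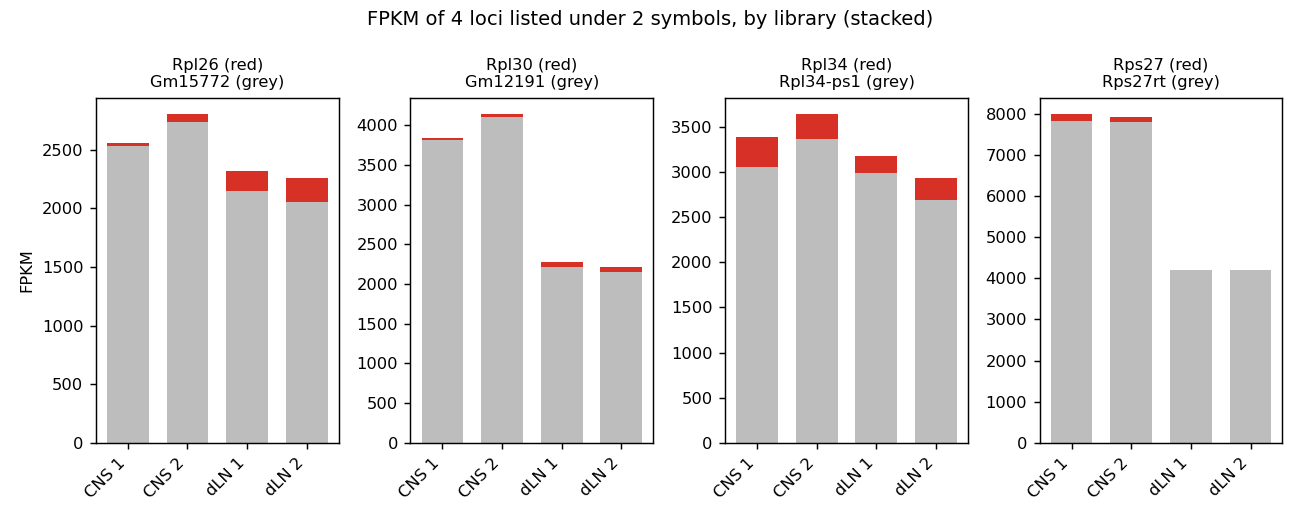
FPKM of 4 loci listed under 2 symbols, stacked for each library, with the core member in red and the second symbol in grey, on linear axes that start at 0. The red part is under 10% of each bar, and for Rpl26 and Rpl30 it was larger in dLN while the whole bar was higher in CNS.

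Of the 7 paralog symbols tested, 2 were lower in CNS (all genes 37.2%), 1 (Rps27rt) was higher (all genes 37.8%) and 4 did not pass. Rpl7l1, a relative of Rpl7 known from assembly of the large subunit, was at 19.2 and 18.8 FPKM in CNS and 82.0 and 87.0 in dLN, 4.45-fold higher in dLN (log2 ratio -2.09, SE 0.082, limma adjusted p = 9.00e-05). Rpl7 itself was at 2400 and 2169 FPKM in CNS and 1948 and 1847 in dLN, a log2 ratio of 0.27 in the opposite direction, which fell to 0.068 (limma adjusted p = 0.524) with the same FPKM sum and kept its call in 9 of 16 alternatives. Rps27l, a p53 target related to Rps27, was at 94.5 and 92.9 FPKM in CNS and 221 and 236 in dLN (log2 ratio -1.28, SE 0.077). Both paralogs and their partners were thus ordered in opposite ways, given here as values since the difference itself was not tested.

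Rpl22l1, the paralog of Rpl22, was at 519 and 434 FPKM in CNS and 402 and 378 in dLN, above Rpl22 at 263 and 229 and at 159 and 176. Its log2 ratio was 0.28 (SE 0.11, limma adjusted p = 0.0665) against 0.55 for Rpl22 (SE 0.11, limma adjusted p = 0.0071). Rpl36al had a log2 ratio of 0.093 (SE 0.092), with 794 and 891 FPKM in CNS and 823 and 756 in dLN. Rpl39l and Rps4l were near the minimum, at 0.787 to 1.46 and 1.75 to 2.86 FPKM, and did not pass. Rpl3l, known from muscle, was read in 1 CNS library at 0.164 FPKM, and Rpl10l, known from testis, was listed at 0 in all 4, and neither was tested. Rps19bp1, which binds Rps19 and the deacetylase Sirt1, was at 13.2 in both CNS libraries and at 52.2 and 54.8 FPKM in dLN (log2 ratio -1.94, SE 0.082).

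Within genes, the transcript used differed in a few cases, Rps27 above among them. The sum of Rps27a, which encodes ubiquitin fused to a ribosomal protein, did not differ (log2 ratio 0.033, SE 0.062). Its minor transcript of 821 bases was at 14.0 and 11.8 FPKM in CNS and 106 and 109 in dLN, or 0.800% and 0.694% of the gene against 6.34% and 6.47%. For Rpl38, which had a log2 ratio of 0.76 as a sum, the transcript of 285 bases had 1176 FPKM in CNS replicate 1 and 329 FPKM in CNS replicate 2, so that its split between transcripts was not stable between replicates. Small RNAs lie inside 24 members as 37 short listed transcripts, 28 of which were at 0 in every library. Snora64, inside Rps2, was listed at 0 in both CNS libraries and at 455 and 316 FPKM in dLN, and Snora52, inside Rplp2, at 0 in CNS and 22.0 and 32.3 FPKM in dLN. Snord15a, inside Rps3, went the other way, at 6.76 and 6.47 FPKM in CNS and at 0 in dLN. These 3 transcripts, of 117 to 148 bases, are shorter than the length by which FPKM was estimated to be corrected in each library, given below, so their FPKM are poorly defined.

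Gnb2l1, the scaffold protein Rack1 of the small subunit, is left out by the symbol rule. It was at 1897 and 2007 FPKM in CNS and 1575 and 1539 in dLN (log2 ratio 0.33, SE 0.066, limma adjusted p = 0.00836).

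Other genes of translation did not share the direction of the core as lists, and their counts stand beside 37.8% of all genes higher in CNS and 37.2% lower. Of 7 genes listed as elongation factors, 2 were higher in CNS and 5 lower, with a median log2 ratio of -0.51. Eef1a1, which brings aminoacyl-tRNA, and Eef2, which drives translocation, were the 2 that were higher, at log2 ratios of 0.38 and 0.93. Eef1b2, Eef1d and Eef1g, partners of Eef1a1, were lower at -0.20, -0.51 and -0.60. Eef1e1, listed by its symbol though it is a part of the multisynthetase complex, had -2.88 and Eif5a, the hypusinated factor, -1.87. Of 8 further mRNAs of nascent chain factors and other TOP-type genes, 1 was higher, Tpt1 with 7812 and 7893 FPKM in CNS against 5423 and 5315 in dLN. Another 5 were lower, led by Npm1, a nucleolar chaperone, with 688 and 644 FPKM in CNS against 1976 and 2082 in dLN. The median of this list was -0.58.

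Of 13 eIF3 subunits, which assemble the initiation complex, 2 were higher and 7 lower (median -0.23). Eif3f and Eif3h were higher at log2 ratios of 1.35 and 0.44, and Eif3b and Eif3c had -1.84 and -1.49. Of 14 genes of the mTORC1 and Larp1 axis, 11 were lower in CNS and 1, Tsc2, an inhibitor of the kinase, was higher (median -0.72). Tsc1, which inhibits the kinase together with Tsc2, was among the lower genes, at a log2 ratio of -0.59. Larp1 was at 24.6 and 27.0 FPKM in CNS and 120 and 131 in dLN (log2 ratio -2.24), and Eif4ebp1, the translation repressor that mTORC1 inactivates, had -2.56. Of 7 dedicated chaperones that guard single ribosomal proteins before assembly, 6 were lower and 1 did not pass (median -1.17). Grwd1, the chaperone of Rpl3, was at 5.24 and 5.29 FPKM in CNS and 87.1 and 98.4 in dLN. Its client Rpl3 was higher in CNS, at 1816 and 1764 FPKM against 1297 and 1281. The mitochondrial ribosomal proteins, 76 genes of a separate ribosome, had 14 higher and 40 lower members and a median of -0.40.

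**Figure D4:**
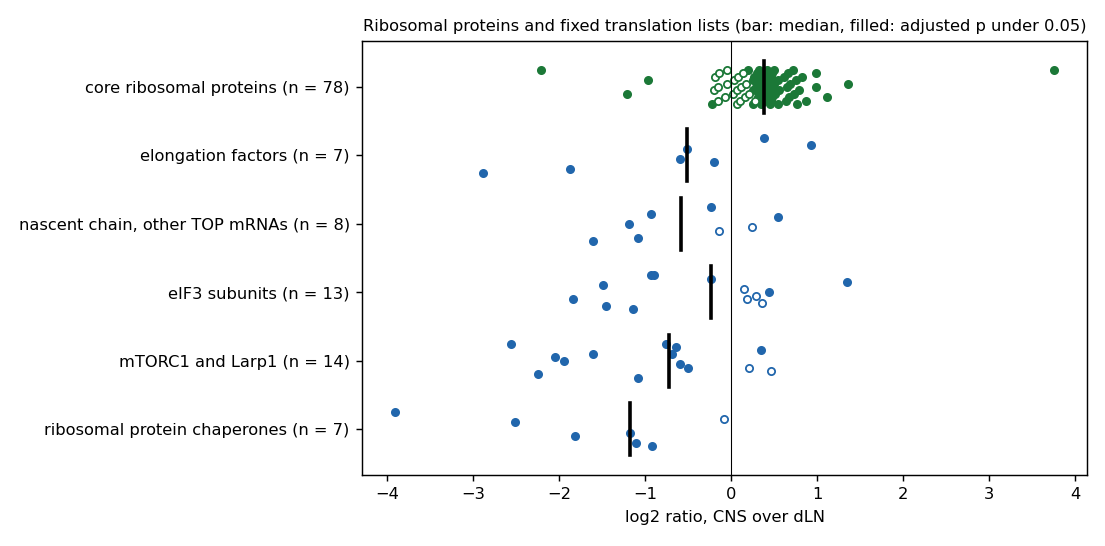
Log2 ratios, CNS over dLN, of single genes in the core set and 5 lists of translation genes, with filled points for an adjusted p under 0.05 in limma and a bar at each median. The core set has a median above 0 (0.38), and the 5 lists have medians from -1.17 to -0.23.

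Transcript length moved with the ratio outside the members. Genes other than members with a main transcript of 300 to 700 bases had a median log2 ratio of 0.62 (n = 355), those of 700 to 1200 bases 0.32, those of 1200 to 2500 bases 0.096 and longer ones -0.086. Core members had medians of 0.35, 0.38 and 0.39 in the classes of 300 to 700, 700 to 1200 and over 1200 bases. The median length of the core members was 694 bases. In the shortest class other genes had the higher median, and in the classes above it the core members did. The length that FPKM is divided by was shortened by an estimated 149 to 193 bases per library, least in CNS replicate 1, and with full lengths in all libraries the core median was 0.41, with 59 members higher and 6 lower (all genes 38.8% and 37.4%). The part of length in the core ratio was not tested further.

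Markers of other cells were low but not equal between libraries. Myeloid and microglial markers (10 genes) summed to 25.4 and 234 FPKM in CNS and 0.683 and 0.448 in dLN. Of these markers 8 were higher in CNS (all genes 37.8%). In the dLN libraries 6 and 7 of them, including Csf1r and C1qa, were at 0. Neutrophil markers (3 genes) summed to 0.767 and 202 FPKM in CNS and 0 in dLN, and B cell markers to at most 1.76 FPKM, with Pax5 at 0 throughout. Markers of CD8 T and NK cells summed to 3.40 to 7.61 FPKM. Those of neural cells summed to 49.9 and 49.8 FPKM in CNS and 55.7 and 58.0 in dLN, nearly all of it Mbp. Gfap was higher in CNS, at 0.655 and 2.51 FPKM against 0 in both dLN libraries (limma adjusted p = 0.0312). Mbp was lower in CNS (log2 ratio -0.28), and Snap25 did not pass. CD4 T cell markers summed to 2732 and 2746 FPKM in CNS and 1313 and 1226 in dLN. Cd4, Cd3e, Cd3d and Cd3g were higher in CNS, whereas Cd44 and Cd5 were lower and Cd2 did not pass. Without CNS replicate 2, which carried most of the myeloid and neutrophil signal, the core median was 0.35, with 51 members higher and 11 lower in CNS (all genes 35.1% and 35.8%).

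Transcripts induced by stimulation also split by tissue. Of 9 such genes 7 were lower in CNS (all genes 37.2%) and 1 higher (all genes 37.8%), with a median log2 ratio of -3.95. Myc, a transcription factor that drives ribosome production, was at 22.1 and 26.5 FPKM in CNS and 363 and 417 in dLN. Il2 was at 18.2 and 38.8 FPKM in CNS and 5363 and 6176 in dLN. The part of these differences in the ribosomal protein values was not tested.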

How the data were processed

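RNA of CD44+CD4 cells was measured in 4 libraries, 2 per tissue, grouped by their titles. For each tissue the authors deposited a table of FPKM values for 33819 RefSeq transcripts (mouse build mm10). The aligner and the program that computed FPKM are not given in the sources used here. The header of the CNS table holds both library names in 1 cell, and its columns were taken in that order. There were 0 columns of other samples.

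FPKM was summed by symbol. The 565 transcripts without a symbol (0.142% to 0.446% of FPKM) were left out. Genes whose mean reached 1 FPKM in either tissue were tested on log2(FPKM + 1), which understates the change of low genes, with limma 3.58.1 (lmFit, eBayes with trend) in R 4.3.3, with a term for tissue alone and a threshold of 0.05 after Benjamini-Hochberg adjustment over all genes. Python 3.11.15 with pandas 2.3.3, numpy 2.4.6, scipy 1.17.1 and matplotlib 3.10.9 did the rest. Members and lists were chosen with earlier results of these data known. Named members are the stalk proteins, Rpsa and Fau, the 8 highest and 8 lowest core ratios, the 5 highest and 5 lowest core levels, paralogs with their partners, X-linked members, Rpl5, Rpl11, Rps6, Rps19, Rpl13a, Rpl38, Rps27a and Rps2, and Rps19bp1; from each pathway list the 2 largest calls each way. Some of these are not reported here. Snora64, Snora52, Snord15a, Gnb2l1 and the start site of Rps15a were chosen after their values were seen.

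Depth came from whole steps of low FPKM: 87.8% to 91.6% of low values lay within 0.1 of a whole number of fragments, where even spacing gives 20%. Model and depth estimates were tested on simulated data. Replicates correlated at 0.976 in CNS and 0.986 in dLN (log2, across genes). Replicate numbers occur in both tissues, but deviations of same-numbered libraries correlated at 0.0933, so the libraries were not treated as pairs. Alternatives covered the pseudocount, scaling, filters, transcript choice, copies, length, a replicate block, eBayes without trend and leaving out each library.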

Additional observations from a re-analysis of the deposited data

How the results depend on the processing

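Over 42 named members tested and 16 alternatives, 579 of 669 member values had the same sign and the same call, 58 lost the call, 21 gained one and 11 changed sign. Summing the symbols at shared loci and using full lengths were chosen after the data were seen.

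With the same FPKM sum, 36 members were higher and 15 lower in CNS and the core median was 0.18; Rpl36al (-0.11), Rps18 (-0.027), Rps27a (-0.17) and Rpsa (-0.031) changed sign. With the same sum without the members, 12 were lower, the core median was 0.25, and Rpl36al (-0.037) and Rps27a (-0.097) changed sign. The same upper quartile gave a core median of 0.52. A minimum of 10 FPKM gave 5304 called genes of the fewer tested. Summing copies at a locus turned Rpl26 (0.23) and Rpl30 (0.82).

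Leaving out each library gave 45 to 62 called members, 39 to 56 higher and 6 to 11 lower in CNS, core medians of 0.35 to 0.41, and 6676 to 7429 called genes, where the lone library of a tissue is assumed to vary like the other tissue. The 11 lower members were found without CNS replicate 2. Without 1 library each, Rps12 ranged from -0.39 to 0.0012 (without CNS replicate 1), Rpl39l from -0.014 (without dLN replicate 1) to 0.36, and Rps4l from -0.40 to 0.063 (without dLN replicate 1). The cause of these changes was not tested.

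A replicate block gave 57 called members, 51 higher and 6 lower, and 7828 called genes (37.2% of all genes higher and 36.4% lower). The correlation of same-numbered libraries does not pair them, so this is a check only.

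With 2 libraries per tissue, and tissue, table, sex-linked transcripts and most of the stimulation-induced transcripts split alike, no source of the differences can be told apart. Depth limits mainly the symbols near 1 FPKM, such as Rpl39l and Rps4l.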
